A study of Mus musculus with 6 samples.

Results

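The genes described here handle iron and heme in macrophages, and they were read in every one of the 6 libraries of the study. They are Slc40a1, Spic, Slc48a1, Blvrb, Hfe, Tfrc, Slc11a1, Slc11a2, Fth1 and Ftl1, 10 of the 54966 features in the deposited table, found there by gene name. The libraries came from wild-type mice, 3 labelled young and 3 labelled old, and hold total RNA of macrophages sorted 3 days after skeletal muscle was injured with barium chloride, a salt that kills muscle fibres and sets off regeneration. The sort kept cells with CD11b and F4/80 and little Ly6C, called pro-repair macrophages in the labels. The ages in months, the strain, the sex and whether a library holds 1 animal or a pool do not appear in the labels. The p-values therefore set the difference between groups against the scatter of libraries within a group, and that scatter can be technical in part.

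Macrophages that clear damaged tissue take up red cells, myoglobin-rich debris and iron bound to transferrin. Heme is moved out of the phagolysosome and opened by heme oxygenase, and the freed iron is either stored in ferritin or sent out through ferroportin, the only iron exporter known in mammals. Iron regulatory proteins adjust this balance after transcription: when the cell is short of iron they bind a hairpin called the iron-responsive element, which holds back translation when it lies in the 5′ UTR of an mRNA and protects the mRNA from decay when it lies in the 3′ UTR.

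The hairpin is shown first because these genes differ in whether they hold its sequence pattern and, if so, in which UTR. Annotated UTRs were searched on the transcribed strand for the loop of 6 bases CAGTGN closed by 5 stem pairs, with an unpaired C just before the stem and G-T pairs allowed in it. A perfect match was found in the 5′ UTR of 0.134% of protein-coding genes and in the 3′ UTR of 0.607%. Among the 10 genes, 4 held a perfect match, and Slc11a2 held a match with 1 extra base on the 3′ side of the stem, a looser form found in the 3′ UTR of 1.11% of genes. The sequences are from GENCODE release M21 on GRCm38, 30 bases each, with the loop in capitals.
Slc40a1, 5′ UTR, chr1:45925465-45925494, minus strand: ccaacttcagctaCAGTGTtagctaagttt
Fth1, 5′ UTR, chr19:9982731-9982760, plus strand: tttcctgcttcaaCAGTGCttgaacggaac
Ftl1, 5′ UTR, chr7:45459779-45459808, minus strand: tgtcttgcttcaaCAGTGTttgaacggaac
Tfrc, 3′ UTR, chr16:32631218-32631247, plus strand: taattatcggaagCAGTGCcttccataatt
Tfrc, 3′ UTR, chr16:32631597-32631626, plus strand: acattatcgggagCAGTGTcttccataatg
Tfrc, 3′ UTR, chr16:32631662-32631691, plus strand: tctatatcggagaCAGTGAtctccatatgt
Tfrc, 3′ UTR, chr16:32631709-32631738, plus strand: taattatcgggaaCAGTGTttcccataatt
Slc11a2, 3′ UTR, chr15:100395153-100395182, minus strand: gagccatcagagcCAGTGTgtttctatggt

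The stretches of both ferritin genes were identical at 27 of 30 positions, while those of Fth1 and Slc40a1 matched at 13 of 30. Both counts include the loop bases CAGTG and the unpaired C before the stem, which the search required. Tfrc carried 4 such stretches. The Slc11a2 stretch lay in 1 annotated coding transcript, and the table gives only the gene total. These matches are descriptions of sequence. The data measure RNA, so translation of the genes with a 5′ element was not measured.

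Levels are FPKM, a fragment count divided by gene length and a library size, in the authors' deposited form. The library size implied by the FPKM was above the recovered fragments in every young library and below them in every old one. The recovered depth lay between 16543939 and 19400929 fragments per library. The genes of both markers sorted for were present in every library. Adgre1, which encodes F4/80, had 347.5 to 381.7 FPKM in young and 430.2 to 476.3 in old, and Itgam, which encodes CD11b, 34.3 to 36.9 and 41.9 to 50.9. For Ly6C, which the sort kept low, Ly6c2 had 1.31 to 3.2 FPKM in young and 2.46 to 7.68 in old, with a higher mean in old (limma adjusted p = 0.305). Ly6c1 had 0.105 to 0.484 in young and 0.0325 to 0.104 in old. The 9 erythroid markers read here summed to 1.97 to 3.05 FPKM in young and 2.34 to 3.18 in old, with Hba-a2, Hbb-bt and Slc4a1 at 0 in all 6 libraries. This sum rests mainly on Bpgm (means of 1.69 FPKM in young and 1.78 in old). Red cell precursors left little trace in the other markers, but how the counting treated fragments shared by globin genes is not stated in the labels.

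Old was compared with young for the 11108 genes that averaged 1 FPKM or more, by limma on log2(FPKM + 1) with Benjamini-Hochberg adjustment over all of them. At an adjusted p under 0.05 the share of genes called was 0.036%, and none of the 10 iron and heme genes was among them. At an unadjusted p under 0.05, limma gave 4 of the 10 (Slc40a1, Tfrc, Hfe and Spic), against 15% of all genes tested. With limma voom on fragments recovered from the FPKM, 0 of the 10 passed as well (0.383% of genes called). The old and young libraries did not overlap for Slc40a1 and Spic, which were lower in old (8.59% of all genes tested), and for Tfrc, which was higher (12.3%). Slc40a1 and Spic reached the mean of 1 FPKM only through the young libraries, so their place among the tested genes is not independent of the direction. The median log2 change of the 10 was -0.036, against 0.012 for all genes tested.

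**Figure D1:**
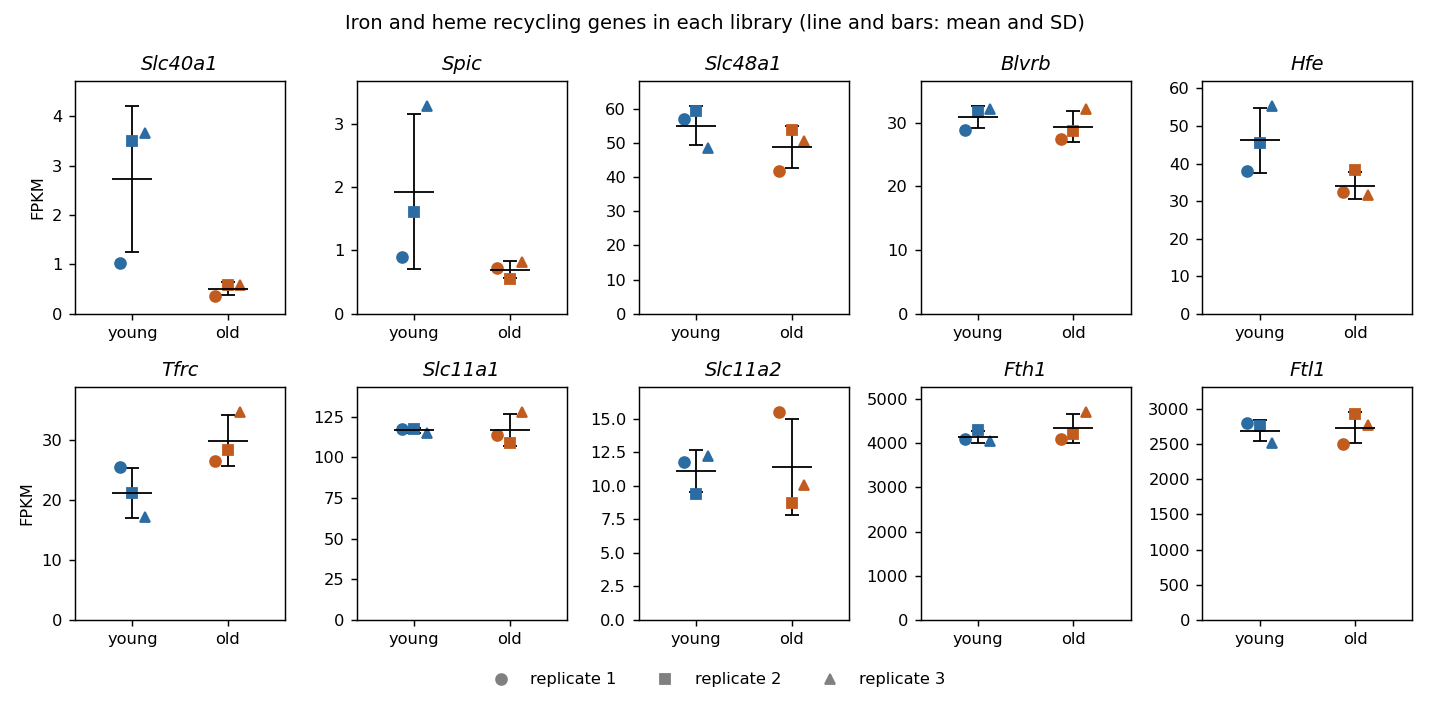
FPKM (vertical axis, starting at 0) of each gene in the 3 young (blue) and 3 old (orange) libraries, with marker shapes for the replicate number and a line with bars for the mean and SD (n = 3). All old values of Slc40a1 and Spic lie under all young ones, all old values of Tfrc lie above, and the ferritin and Slc11 genes overlap.

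Slc40a1 encodes ferroportin (chromosome 1, 45908068 to 45926523). Its level was 1.03, 3.5 and 3.67 FPKM in the young libraries, in the order of their replicate numbers as for every gene below, and 0.348, 0.587 and 0.588 in the old ones. Every old library was below every young one, and young replicate 1 lay nearer to the old libraries than to the other young ones. The values rest on 171, 530 and 562 fragments in young and 56, 91 and 97 in old. The mean was 2.73 ± 1.48 FPKM in young and 0.508 ± 0.138 in old (SD, n = 3 per group), 5.38 times higher in young. The log2 change on the log2(FPKM + 1) scale, which understates changes of low genes, was -1.22 (SE 0.317, 95% interval -1.97 to -0.47), and it did not pass (limma adjusted p = 0.19). Without young replicate 1 the change was -1.61 and passed (limma adjusted p = 0.0412, with 0.126% of genes called in that fit). Leaving out the young library nearest to old enlarges the change by construction, so this pass is no added support. Without any other single library the change did not pass (limma adjusted p from 0.235 to 0.473), and it was -1.01 without young replicate 3. Less RNA per cell and fewer cells that make ferroportin cannot be told apart in such bulk libraries.

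The summed levels of fibroblast and muscle fibre markers were also lower in old. The 5 fibroblast markers summed to 1.97 to 3.82 FPKM in young and 0.741 to 1.53 in old, and the 8 muscle fibre markers to 11.4 to 15.5 and 4.6 to 8.03, with Myh4, Myh1 and Mb near 0. The fibroblast sum rests mainly on Col1a1 (means of 1.55 FPKM in young and 0.539 in old) and Col1a2 (0.798 and 0.257). Dcn and Lum overlapped between groups, and Pdgfra held 2 to 4 fragments in each library. The muscle fibre sum rests mainly on Acta1 (means of 5.26 FPKM in young and 2.33 in old) and Tnni2 (3.91 and 2.31), while the means of Ckm, Myh4 and Mb were higher in old. Actc1, an actin of heart and developing muscle, was the 1 muscle fibre marker of 4 tested that passed (limma adjusted p = 0.0444). Its means were 1.91 FPKM in young and 0.125 in old, where it rests on 1 to 6 fragments. Col1a1, the 1 fibroblast marker tested, did not pass (limma adjusted p = 0.216). Actc1 and Col1a1 reached the mean of 1 FPKM only through the young libraries, so their place among the tested genes is not independent of the direction. Young replicate 1, the lowest of its group in Slc40a1, had the highest fibroblast sum and the lowest muscle fibre sum of that group. The 5 endothelial markers summed to 6.04 to 7.58 FPKM in young and 4.28 to 9.21 in old, with overlap. Within this sum Pecam1 was lower in every old library (2.23 to 2.57 FPKM in young, 1.33 to 1.37 in old, limma adjusted p = 0.104). The means of Cdh5, Tie1 and Emcn were also lower in old, and that of Kdr was higher (2.97 in young, 4.46 in old). The sums also overlapped for the 6 neutrophil markers (3.92 to 5.38 and 3.59 to 4.33, with Ly6g at 0 throughout) and the 5 lymphocyte markers (0.656 to 1.17 and 0.551 to 1.055, with Cd3e and Cd3g at 0). The neutrophil marker Retnlg was lower in every old library (1.19 to 2.41 FPKM in young, 0.196 to 0.849 in old, limma adjusted p = 0.213). It too reached the mean of 1 FPKM only through the young libraries. Of the other neutrophil markers, only S100a8 had a higher mean in old. The part of these cells in the Slc40a1 difference was not tested.

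Spic encodes the transcription factor that heme induces in iron-recycling macrophages of the spleen (chromosome 10, 88674772 to 88685015). It had 0.901, 1.61 and 3.29 FPKM in the young libraries and 0.728, 0.544 and 0.824 in the old ones. The groups were separate, but only just: the highest old library lay close under young replicate 1, which was again the lowest of the young. Fragment numbers were 64, 104 and 215 in young and 50, 36 and 58 in old. The log2 change was -0.71 (SE 0.281, 95% interval -1.37 to -0.04) and did not pass (limma adjusted p = 0.309).

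Heme enters this pathway through Slc48a1, which encodes the transporter HRG1 that carries heme out of the phagolysosome. It had 57.2, 59.6 and 48.6 FPKM in young and 42.0, 53.8 and 50.8 in old. The groups overlapped, and the log2 change was -0.17 (95% interval -0.45 to 0.11, limma adjusted p = 0.544). The gene lies opposite Hdac7, whose annotated span overlaps it on the other strand and which had 2.87 to 3.71 FPKM, and whether the counting used strand is not stated in the labels. Blvrb encodes a biliverdin reductase that also reduces flavins, and stands after heme oxygenase. It had 28.9, 31.7 and 32.1 FPKM in young and 27.4, 28.6 and 32.1 in old, and its log2 change was -0.071 (95% interval -0.26 to 0.12). Both genes of heme handling were thus within the spread between libraries, with intervals that leave out a halving of either on this scale.

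Iron bound to transferrin enters through transferrin receptor 1, encoded by Tfrc (chromosome 16, 32608920 to 32632794), the gene whose 3′ UTR carries the 4 stretches printed above. It had 25.4, 21.1 and 17.1 FPKM in young and 26.5, 28.3 and 34.6 in old. No old library was as low as any young one, though young replicate 1 and old replicate 1 nearly met. The mean was 21.2 ± 4.18 FPKM in young and 29.8 ± 4.24 in old, 1.41 times higher in old, and the log2 change was 0.48 (SE 0.156, 95% interval 0.11 to 0.85, limma adjusted p = 0.24).

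Hfe encodes a relative of MHC class I molecules that pairs with beta-2 microglobulin and binds transferrin receptor 1 (chromosome 13, 23702034 to 23710854). It had 38.1, 45.4 and 55.3 FPKM in young and 32.5, 38.2 and 31.5 in old. The groups overlapped at 1 point, where old replicate 2 stood just above young replicate 1. The mean was 46.3 ± 8.67 FPKM in young and 34.1 ± 3.61 in old, with a log2 change of -0.42 (SE 0.143, 95% interval -0.76 to -0.08, limma adjusted p = 0.255). Its partner B2m had 3133, 3128 and 3137 FPKM in young and 4366, 3935 and 4633 in old, a log2 change of 0.46 that did not pass (limma adjusted p = 0.172). The values of receptor and partner thus lay higher in every old library, and those of Hfe lay lower in old on average.

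**Figure D2:**
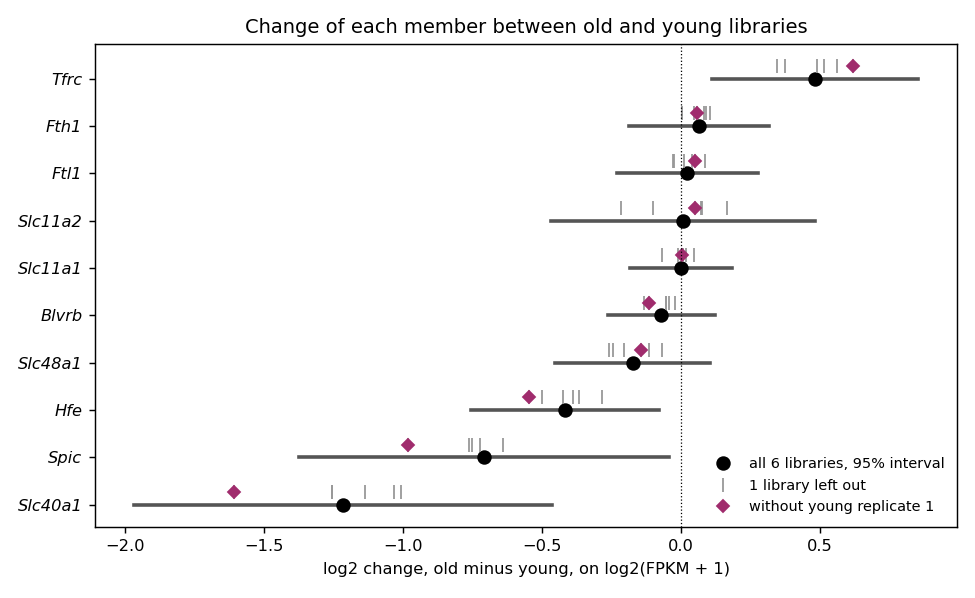
Log2 change, old minus young, on the log2(FPKM + 1) scale for each gene (circles, with 95% intervals from limma), with the values after leaving out 1 library (ticks) and without young replicate 1 (diamonds). The intervals of Slc40a1, Spic, Hfe and Tfrc lie on one side of 0, none passes the adjusted threshold in all 6 libraries, and the Slc40a1 change is -1.61 without young replicate 1.

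The natural resistance-associated macrophage proteins move divalent metal ions across membranes. Slc11a1 encodes the form of the phagosome membrane and was the better expressed, at 117.4, 117.7 and 115 FPKM in young and 113.6, 109 and 127.9 in old. Slc11a2 encodes DMT1, which passes iron from endosomes to the cytosol, and had 11.8, 9.36 and 12.2 FPKM in young and 15.5, 8.72 and 10.1 in old. Both overlapped between groups. The log2 changes were -0.0014 for Slc11a1 (95% interval -0.19 to 0.18) and 0.0069 for Slc11a2 (95% interval -0.47 to 0.48). Old replicate 1 was the highest library for Slc11a2, and without it the change was -0.22. The interval of Slc11a2 is wide enough to hold a change of the size seen for Hfe.

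The ferritin genes stood far above the rest. Fth1, which encodes the heavy chain that oxidises iron on entry, had 4101, 4290.1 and 4040.3 FPKM in young and 4093, 4214 and 4705 in old, and ranked from 5 to 7 among all features of a library. Ftl1, which encodes the light chain that helps the iron core form, had 2801, 2759 and 2518 FPKM in young and 2497, 2930 and 2778 in old, and ranked from 10 to 12. Together they took 1.67% to 1.89% of all recovered fragments. The groups overlapped for both, and the log2 changes were 0.064 for Fth1 (95% interval -0.19 to 0.32) and 0.021 for Ftl1 (95% interval -0.23 to 0.27), with signs that both turned under quantile normalization (-0.14 and -0.11) and, for Ftl1, under rescaling to TPM (-0.041). At this depth counting error is small, and the spread between libraries sets these intervals.

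The ratio of Fth1 to Ftl1 in FPKM was 1.46, 1.56 and 1.6 in young and 1.64, 1.44 and 1.69 in old, with means of 1.54 ± 0.0713 and 1.59 ± 0.135. The libraries of both groups were interleaved. The size of the ratio depends on gene length: the FPKM divide by all annotated exons, 3469 bases for Fth1 with its retained introns, whereas the principal Fth1 transcript has 929, and Ftl1 has 1340 and 968. With principal transcript lengths, an alternative chosen after the data were seen, the ratio was 4.16 in young and 4.29 in old. Near-identical copies can share fragments with either gene: Ftl1-ps1, annotated as protein-coding despite its name, had 69.6 to 83.8 FPKM, and the processed pseudogene Fth-ps2 had 0.114 to 0.943. Gm10252, opposite Ftl1, had 20.9 to 29.1.

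By mean FPKM over the 6 libraries the order was Fth1 (4241), Ftl1 (2714), Slc11a1 (116.8), Slc48a1 (52), Hfe (40.2), Blvrb (30.1), Tfrc (25.5), Slc11a2 (11.3), Slc40a1 (1.62) and Spic (1.32). The ranges over libraries overlapped for the neighbours Slc48a1 and Hfe, Hfe and Blvrb, Blvrb and Tfrc, and Slc40a1 and Spic, and did not for the other pairs. In the old libraries alone the mean of Tfrc (29.8) was above that of Blvrb (29.4), and that of Spic (0.699) above that of Slc40a1 (0.508). With principal transcript lengths Slc40a1 stood at 4.33, Spic at 2.87 and Blvrb at 81.5 on the same scale, the last above Slc48a1 and Hfe. Under either length the exporter gene stood far below the storage genes.

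**Figure D3:**
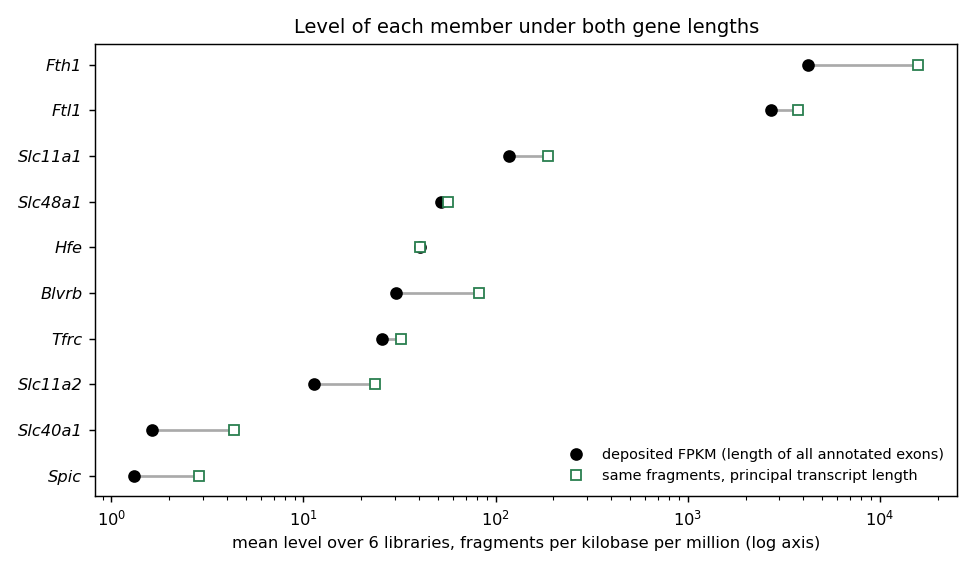
Mean level over the 6 libraries on a log axis, as deposited FPKM (filled circles) and with the same fragments divided by the principal transcript length (open squares). Fth1 shifts by the largest factor of the 10, from 4241 to 15835, and Hfe does not shift because its principal transcript covers all its annotated exons.

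Other genes of the pathway, and genes listed for red pulp macrophages, were read from 6 lists of 71 genes, of which 51 were tested. None passed over all genes (0 higher, 0 lower, limma), and 10 had an unadjusted p under 0.05, beside 15% of all genes tested. With limma voom on recovered fragments, where 0.383% of all genes were called, 1 passed, Siglec1. It belongs to the red pulp macrophage list and not to a list of iron or heme steps. Without overlap between groups, 9 of the 51 were higher in old and 3 lower, beside the 12.3% and 8.59% of all genes tested. The median log2 change of the 51 was 0.031.

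Heme uptake, breakdown and export held 8 tested genes, 2 of them separated and higher in old. Cd163, the scavenger receptor for haemoglobin bound to haptoglobin, had 5.54, 6.74 and 5.71 FPKM in young and 13.3, 8.75 and 7.57 in old (log2 change 0.61, limma adjusted p = 0.226). Lrp1, the receptor for heme bound to hemopexin, had 161.1, 126.9 and 115.3 FPKM in young and 193.3, 167 and 183.8 in old (0.44, limma adjusted p = 0.217). Hmox1, the inducible heme oxygenase, overlapped, at 286.3, 405.7 and 339.8 FPKM in young and 277.4, 325.4 and 277.4 in old (-0.22). The receptor values were therefore higher in every old library and those of the enzyme were not separated. Flvcr1, described as a heme exporter of the plasma membrane, overlapped too (0.23).

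Iron uptake, trafficking and storage held 8 tested genes, with 2 separated upward and 2 downward. Steap3, the ferrireductase of endosomes that take in transferrin, had 12.1, 9.91 and 7.98 FPKM in young and 15, 13 and 13.2 in old (0.44, limma adjusted p = 0.236). Mcoln1, a cation channel of lysosomes that also passes iron, had 7.03 to 8.12 FPKM in young and 8.97 to 10.4 in old (0.27). The iron chaperone genes Pcbp1 and Pcbp2, which load ferritin, lay lower in every old library. Pcbp2 had 33.6, 34.8 and 38.8 FPKM in young and 29.5, 30.7 and 29.1 in old (-0.25, limma adjusted p = 0.21), and Pcbp1 had a log2 change of -0.12 (limma adjusted p = 0.405).

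Of the hepcidin axis only B2m was tested. Hamp, which encodes hepcidin, the hormone that closes ferroportin, had 0.435 to 1 FPKM in young and 0.546 to 1.46 in old, and the ferroxidase gene Cp 0.249 to 0.565 and 0.468 to 0.661. The Hamp values are near the floor, on 3 to 7 fragments in young and 4 to 11 in old. Among 11 sensing regulators, Aco1, which encodes iron regulatory protein 1, was the only separated gene, at 14.6, 13.8 and 14.8 FPKM in young and 15.9, 15.7 and 15.8 in old (0.12, limma adjusted p = 0.373). Ireb2, the other iron regulatory protein gene, overlapped (0.039), as did Bach1, a repressor released by heme (0.16), and Nfe2l2, which encodes NRF2 (-0.12). Of 17 genes of heme synthesis and mitochondrial iron, 1 was separated, the mitochondrial iron importer gene Slc25a37, at 5.83, 6.86 and 6.11 FPKM in young and 7.81, 7.53 and 8.15 in old (0.28, limma adjusted p = 0.195), and the list's median was -0.0076.

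The list drawn up for red pulp macrophages, the iron-recycling cells of the spleen in which Spic acts, held 6 tested genes. Of these, 4 changed upward and 2 downward, with a median log2 change of 0.27. Without overlap between groups, 2 were higher in old and 1 was lower. Treml4, a receptor that binds dead cells, had 3.76, 5.48 and 4.76 FPKM in young and 2.58, 3.2 and 1.99 in old (-0.66, limma adjusted p = 0.172), and so lay on the side of Spic and Slc40a1. Cd5l, a secreted macrophage protein, had 67.8, 69.2 and 55.4 FPKM in young and 95.6, 137.7 and 186.3 in old (1.07, limma adjusted p = 0.161). Vcam1, an adhesion molecule whose expression in spleen macrophages needs Spic, overlapped between groups (-0.21), as did Pparg (0.20) and Irf4 (0.33). Siglec1, which encodes the lectin sialoadhesin, was the one that passed with voom (0.89 in limma on log2(FPKM + 1), adjusted p = 0.0826).

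**Figure D4:**
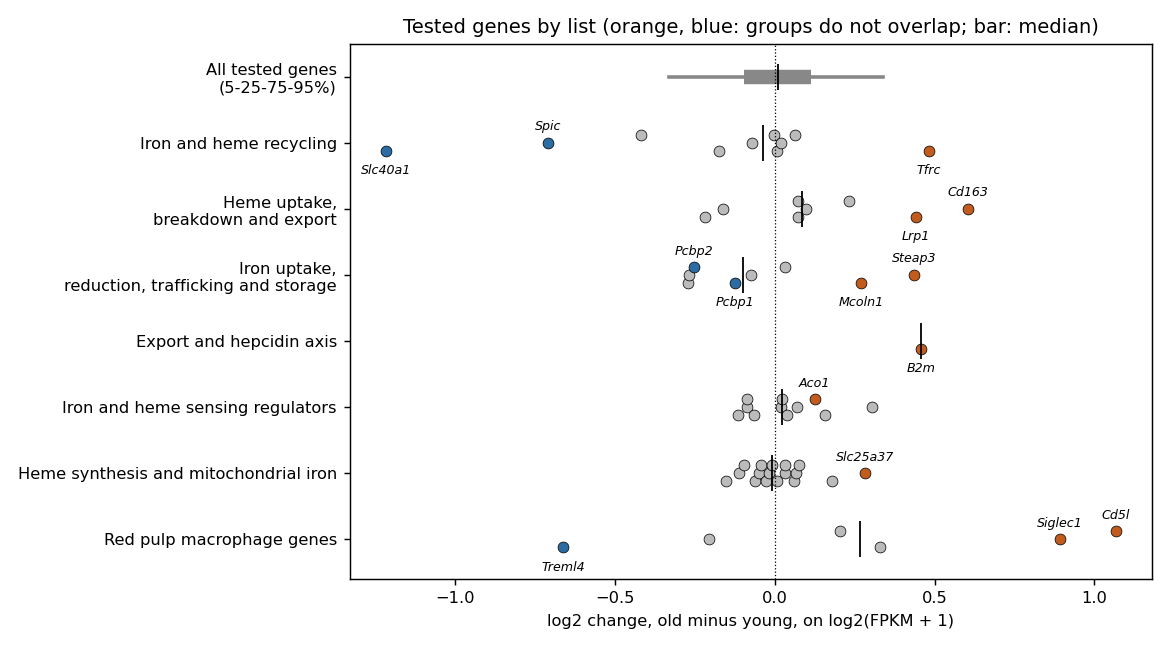
Log2 change, old minus young, on the log2(FPKM + 1) scale for each tested gene (points) by list, with the list median (bars) and, on top, the central ranges of all 11108 tested genes. Orange and blue mark genes whose groups do not overlap, higher or lower in old, and Slc40a1 (-1.22) and Cd5l (1.07) are the outermost points.

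Among protein-coding genes averaging 5 FPKM or more, the 5 whose log2(FPKM + 1) was most like that of Slc40a1 over the 6 libraries were Slc12a9 (Pearson r = 0.993), I830077J02Rik, CAAA01147332.1, Gm10382 and Pnrc2 (0.987), as a description. Slc12a9 had 10.6, 14.5 and 14.2 FPKM in young and 9.17, 10.1 and 10.2 in old. Its low value in young replicate 1 follows from how it was picked, and its relative range was smaller than that of Slc40a1.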

How the data were processed

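The authors deposited 1 table of FPKM per gene for 6 libraries, 54966 features, with genome build GRCm38.p6 per the submitters' processing notes. Aligner, counter, annotation and strandedness do not appear in the labels. FPKM multiplied by the exon-union length (GENCODE M21, which held 54495 of the identifiers) gave whole fragments within 0.02, for multiples below 200, in 97.5% to 97.6% of values, and these fragments were used for depth and for limma voom. The main test was limma 3.58.1 in R 4.3.3, with a mean-variance trend, on log2(FPKM + 1) for the 11108 genes averaging 1 FPKM or more, two-sided, adjusted by Benjamini-Hochberg over all of them at 0.05, and the script was tested on simulated data. Intervals are 95% limma intervals. Principal transcripts are APPRIS principal transcripts in GENCODE, the lowest-numbered where several. Python 3.11.15 with pandas 2.3.3 and matplotlib 3.10.9 did the rest. The 10 genes, the lists and the naming rule were chosen with earlier results of these data known. The rule named all 10 genes, the features named as ferritin pseudogenes, list members whose groups did not overlap or with the smallest p (up to 4 a list), and the 5 genes most like Slc40a1. Other list members, gate and cell type markers and overlapping genes were named after their values were seen. A few marker genes are not reported here.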

Additional observations from a re-analysis of the deposited data

How the results depend on the processing

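Over all genes, 2 were called higher and 2 lower. Both counts were 0 with pseudocounts of 0.1 and 0.01, without the filter, with a minimum mean of 5 FPKM and with the replicate number as a block. They were 3 and 1 without the trend, 30 and 20 with array weights, and 27 and 15 with limma voom on recovered fragments. Leaving out 1 library gave 0 to 6 higher and 0 to 8 lower, and 0 to 1 of the 10 iron and heme genes, the 1 being Slc40a1 without young replicate 1. Of the wider lists 0 genes passed, and 1 with voom. The cause of these differences was not tested.

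Of 167 log2 changes of the 10 genes under 17 settings, 152 kept their direction and their side of the threshold. Over all settings in which they were tested, the changes ran from -2.24 to -1.01 for Slc40a1, from -1.28 to -0.64 for Spic, from -0.55 to -0.28 for Hfe and from 0.34 to 0.62 for Tfrc. Slc40a1 and Spic were not tested at a minimum of 5 FPKM, nor Spic without young replicate 3. Signs turned only where the change was near 0: Slc11a1 with array weights (0.024) and, leaving out 1 library, between -0.068 and 0.046; Slc11a2 with quantile normalization (-0.0079) and TPM (-0.054) and, leaving out 1 library, between -0.22 and 0.17; Fth1 with quantile normalization (-0.14); Ftl1 with quantile normalization (-0.11) and TPM (-0.041) and, leaving out 1 library, between -0.030 and 0.085. The Fth1 to Ftl1 ratio became 4.16 in young and 4.29 in old with principal transcript lengths, since these are shorter by unequal factors, and 1.5 and 1.54 with the features named as ferritin pseudogenes added.

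Libraries with the same replicate number deviated from their group means together at r = 0.0321, 0.0542 and 0.0415 across genes. These values are low, and the main test did not pair the libraries, although each correlated best with its own number. With the block, no iron or heme gene passed (0 of 10, with Slc40a1 at -1.22, limma adjusted p = 0.221). The block lowered the SE of Slc40a1 from 0.317 to 0.227 and raised that of Tfrc from 0.156 to 0.181. With 3 libraries per group, the spread between libraries sets the intervals. Among the 10 genes the lowest counts were those of Slc40a1 and Spic, whose old libraries held 36 to 97 fragments.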
